A study of Homo sapiens with 20 samples.

Results

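The genes described here are 10 members of the BCL2 family, read from RNA-seq counts of 4 lung cancer cell lines after CRISPR-Cas9 deletion of *ADAR*. They comprise 6 BH3-only genes, *BBC3* (PUMA), *PMAIP1* (NOXA), *BCL2L11* (BIM), *BMF*, *BIK* and *HRK*, and 4 anti-apoptotic genes, *MCL1*, *BCL2L1* (BCL-XL), *BCL2A1* (BFL1) and *BCL2*. They were chosen by name, and each symbol matched 1 of the 58233 Ensembl identifiers counted in every library. The 20 libraries covered 10 conditions, and both libraries of a condition differed in their sgRNA (sg1 or sg2).

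HCC366 (lung adenosquamous carcinoma), NCI-H1650 (lung adenocarcinoma) and NCI-H196 (variant small cell lung cancer), the ADAR1-dependent cell lines, were untreated, and their RNA was isolated 5 days after lentiviral delivery of Cas9 with either a *GFP* or an *ADAR* sgRNA. A549 (lung adenocarcinoma), a line that tolerates loss of ADAR1, carried the same kinds of sgRNA and received vehicle or IFN-β at 10 ng/mL for 24 h. Every library, controls included, therefore came from cells that expressed Cas9 and an sgRNA, and each was a transduced population, not a clone. *GFP* is a gene that these cells lack, so that the *GFP* sgRNAs served as the control. Nothing in the labels says that the libraries came from separate cultures. P values within a line therefore rest on the 2 sgRNAs of each condition and measure only the spread between them, which may be technical. In the joint fit of the ADAR1-dependent lines, the spread also holds differences of the *ADAR* KO effect between lines. The fit of all libraries pools the spread between sgRNAs over lines of unlike depth.

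The BCL2 family governs the mitochondrial route to apoptosis. Anti-apoptotic members hold the pore-forming proteins BAX and BAK in check, while BH3-only proteins bind the anti-apoptotic members or BAX and BAK directly and release that hold, each with its own preference (NOXA mainly for MCL1 and BFL1, HRK mainly for BCL-XL, BIM and PUMA for all of them). Transcription of BH3-only genes is a known output of p53, of the stress factors ATF4 and CHOP (*DDIT3*) and of FOXO factors, and MCL1 is known for fast turnover of its mRNA and protein. ADAR1 edits double-stranded RNA and thereby limits its detection by innate sensors such as MDA5 and PKR.

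All 10 are annotated as protein-coding. On GRCh37 the BH3-only genes are *BBC3* (ENSG00000105327) at chr19:47724079-47736023, *PMAIP1* (ENSG00000141682) at chr18:57567228-57571537, *BCL2L11* (ENSG00000153094) at chr2:111876955-111926021, *BMF* (ENSG00000104081) at chr15:40380091-40401093, *BIK* (ENSG00000100290) at chr22:43506756-43525718 and *HRK* (ENSG00000135116) at chr12:117293949-117319246. The anti-apoptotic genes are *MCL1* (ENSG00000143384) at chr1:150533371-150552214, *BCL2L1* (ENSG00000171552) at chr20:30252255-30311792, *BCL2A1* (ENSG00000140379) at chr15:80253234-80263538 and *BCL2* (ENSG00000171791) at chr18:60790579-60987361.

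The promoters below are shown because, of the 8 members with an entry in the RefSeq promoter table (GRCh38.p14), these 3 held a match to a motif of a stress or interferon pathway. The motifs searched on both strands of the 250 bases before the transcription start were the C/EBP-ATF response element (TGATGNAA), the core of the cAMP response element (TGACGT), the interferon-stimulated response element and the gamma-activated site (TTCNNNGAA). Among all 35116 promoters in the table, 3.14% held the first, 7.10% the second, 3.02% the third and 6.57% the fourth. Capitals mark the matches, and each sequence is written 5′ to 3′ on the strand of its gene.
PMAIP1, chr18:59899746-59899995, plus strand, with the cAMP response element core (reverse strand) starting 56 bases before the start: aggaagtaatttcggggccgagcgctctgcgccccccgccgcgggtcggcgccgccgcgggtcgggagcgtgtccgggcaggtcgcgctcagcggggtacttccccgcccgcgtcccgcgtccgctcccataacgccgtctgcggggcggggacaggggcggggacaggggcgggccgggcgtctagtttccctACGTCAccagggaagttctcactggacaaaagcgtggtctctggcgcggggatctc
HRK, chr12:116881442-116881691, minus strand, with the C/EBP-ATF response element starting 75 bases before the start: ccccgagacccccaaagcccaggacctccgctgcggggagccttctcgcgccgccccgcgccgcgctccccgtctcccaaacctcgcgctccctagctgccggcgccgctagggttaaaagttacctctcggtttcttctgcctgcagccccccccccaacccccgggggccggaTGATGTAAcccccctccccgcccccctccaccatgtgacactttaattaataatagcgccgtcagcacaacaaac
BCL2A1, chr15:79971197-79971446, minus strand, with a gamma-activated site starting 168 bases, an interferon-stimulated response element (reverse strand) 133 bases and a C/EBP-ATF response element 63 bases before the start: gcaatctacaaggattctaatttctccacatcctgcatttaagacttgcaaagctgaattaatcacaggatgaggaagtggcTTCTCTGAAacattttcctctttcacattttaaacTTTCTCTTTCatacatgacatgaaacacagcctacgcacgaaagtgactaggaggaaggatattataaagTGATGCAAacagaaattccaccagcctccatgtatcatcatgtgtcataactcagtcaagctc
The *BBC3*, *BCL2L11*, *BMF*, *BCL2L1* and *BCL2* entries held none of these letters in that window. *MCL1* and *BIK* were not matched. A match is a description of the letters and shows no binding.

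Reads on genes ranged from 62679 to 19520189 per library, with a median of 6411279. NCI-H196 GFP sg2 stood apart with 62679 reads, so that 1 read there was worth 14.7 CPM (counts scaled to library size by TMM), and it held between 0 and 36 reads per member. In HCC366 ADAR sg2, 85.6% of alignments were not unique (22.5% to 59.1% in the other 19 libraries), and GC content and length together accounted for 50.03% of the variance of its log ratio to the HCC366 mean (13.2% to 34.4% in the other 3). In HCC366, NCI-H1650 and A549 the 6 epithelial markers (*EPCAM*, *CDH1* and 4 keratins) summed to between 2827 and 8104 CPM. In HCC366 and A549 the sum was mostly *KRT7*, *KRT8* and *KRT18*. There *EPCAM* averaged 1.39 CPM in HCC366 *GFP* and 0.298 CPM in vehicle-treated A549 *GFP* libraries, *KRT19* 0 and 0.994 CPM, and *CDH1* 9.17 and 29.6 CPM. In NCI-H196 the same list summed to at most 95.1 CPM. The neuroendocrine marker list summed to at most 4.06 CPM in NCI-H196, given above as small cell (2.51 to 28.2 CPM in the other lines). The 3 mesenchymal markers (*VIM*, *ZEB1* and *CDH2*) summed to between 2170 and 2952 CPM in NCI-H196. Their sum was 684 to 907 CPM in A549, 132 to 157 CPM in NCI-H1650 and 19.4 to 34.7 CPM in HCC366. The 3 squamous markers reached at most 5.25 CPM in HCC366, given above as adenosquamous. Their sum was 15.8 to 58.6 CPM in NCI-H196 (the 62679-read library included), 3.34 to 7.90 CPM in NCI-H1650 and 2.16 to 3.12 CPM in A549. The 5 counted markers of leukocytes and fibroblasts (*PTPRC*, *CD3E*, *CD68*, *COL1A1* and *DCN*) summed to 2162 to 3258 CPM in NCI-H196. There *CD3E* and *CD68* had no read. In the other lines that sum was at most 179 CPM.

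The targeted gene was read first, as a check of the labels. *ADAR* stood at 804 and 1101 CPM in HCC366 GFP sg1 and sg2 and at 571 and 490 CPM in HCC366 ADAR sg1 and sg2. The corresponding values were 621 and 761 against 296 and 268 CPM in NCI-H1650, and 664 and 865 against 564 and 482 CPM in NCI-H196. In A549 they were 436 and 437 against 161 and 250 CPM with vehicle, and 1219 and 1193 against 691 and 895 CPM with IFN-β. Each *ADAR* library thus lay below both *GFP* libraries of its line and treatment. The log2 fold change was −0.84 (SE 0.31, adjusted p = 0.208) in HCC366 and −1.29 (SE 0.11, adjusted p = 6.63e-14) in NCI-H1650. For NCI-H196 it was −0.41 (SE 0.11, adjusted p = 0.00165), and it was −1.08 (SE 0.13, adjusted p = 9.98e-05) in vehicle-treated A549 (edgeR quasi-likelihood F-test, Benjamini-Hochberg over all genes tested, as for every adjusted p below). In HCC366 the value was −0.98 without ADAR sg1 and −0.72 without ADAR sg2, in fits whose spread came from the *GFP* pair alone. In NCI-H196 the call was lost without ADAR sg1 (−0.59) or ADAR sg2 (−0.37), and in vehicle-treated A549 it was lost with DESeq2 (−1.08, adjusted p = 0.129). In bulk libraries fewer cells with a transcript and less of it per cell cannot be told apart.

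Before *ADAR* was deleted, the 4 lines carried different sets of BCL2 family transcripts. Levels of different genes were compared per length, as RPKM (CPM divided by the exonic length in kilobases) with all 20 libraries scaled together. The controls of A549 had received vehicle and those of the other lines had not.

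**Figure D1:**
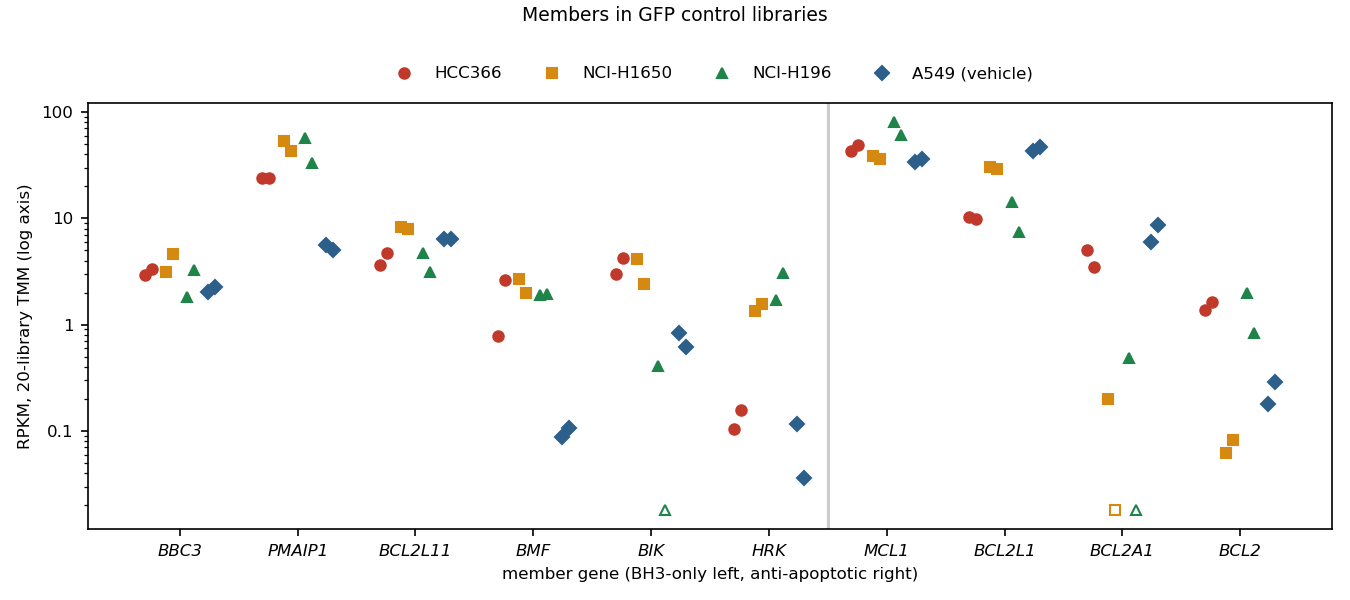
RPKM (log axis) of the 10 members in the 2 *GFP* libraries of each line, with open symbols at the lower edge for libraries with no read. *MCL1* lay between 33.5 and 80.5 RPKM in all 8 libraries, whereas *PMAIP1* was 5.05 and 5.55 RPKM in A549 and between 23.8 and 57.3 RPKM elsewhere.

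*MCL1* was the most abundant anti-apoptotic transcript in the ADAR1-dependent lines, where HCC366 had 46.1 ± 3.8, NCI-H1650 37.3 ± 1.8 and NCI-H196 70.5 ± 14.2 RPKM (SD, n = 2 each). In A549, *BCL2L1* (44.6 ± 2.6 RPKM) stood above *MCL1* (34.8 ± 1.9 RPKM). *MCL1* and *BCL2L1* together made up between 88.4% and 99.9% of the summed RPKM of the anti-apoptotic members in each of the 20 libraries.

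Among the BH3-only genes *PMAIP1* had the highest level in HCC366 (23.8 ± 0.077 RPKM), NCI-H1650 (48.4 ± 7.7 RPKM) and NCI-H196 (45.4 ± 16.9 RPKM). In A549 it measured 5.30 ± 0.36 RPKM, with *BCL2L11* at 6.39 ± 0.085 RPKM. *PMAIP1* was highest in NCI-H1650 and NCI-H196, which could not be ordered (log2 difference NCI-H1650 minus NCI-H196 −0.16, SE 0.20, adjusted p = 0.525), followed by HCC366 and A549. NCI-H1650 was above HCC366 (log2 difference HCC366 minus NCI-H1650 −1.02, adjusted p = 6.16e-05), and A549 was below each of the others, by a log2 difference of −2.17 (adjusted p = 3.00e-10) to HCC366.

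*HRK*, whose protein binds BCL-XL, had 1.45 ± 0.14 RPKM in NCI-H1650 and 2.38 ± 0.96 RPKM in NCI-H196, against 0.130 ± 0.037 in HCC366 and 0.0764 ± 0.057 in A549. The test separated neither the first pair (adjusted p = 0.579) nor the second (adjusted p = 0.347), and each of the 4 comparisons between the pairs passed the test. *BMF* was nearly absent from A549 (10 reads over both libraries, 0.0973 ± 0.013 RPKM), a log2 difference of −4.25 to HCC366 (adjusted p = 6.97e-09). *BIK* ranged from 0.204 ± 0.29 RPKM in NCI-H196 to 3.61 ± 0.86 RPKM in HCC366.

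The minor anti-apoptotic members also differed by line. *BCL2A1* measured 7.31 ± 1.9 RPKM in A549 and 4.26 ± 1.1 RPKM in HCC366, but only 1 read was found in NCI-H1650 and 5 in NCI-H196 over both control libraries. *BCL2* was highest in HCC366 (1.497 ± 0.19 RPKM) and NCI-H196 (1.40 ± 0.81 RPKM) and lowest in NCI-H1650 (0.0727 ± 0.014 RPKM). *BBC3*, a main p53 target, lay between 2.12 ± 0.17 RPKM in A549 and 3.88 ± 1.0 RPKM in NCI-H1650. In all, 38 of the 60 comparisons of a member between 2 lines passed the test, 6 of 10 for A549 against HCC366, 8 for A549 against NCI-H1650, 7 for A549 against NCI-H196, 6 for HCC366 against NCI-H1650, 5 for HCC366 against NCI-H196 and 6 for NCI-H1650 against NCI-H196. Of the 19523 genes tested, 50.8%, 53.8%, 57.8%, 41.0%, 43.2% and 46.7% passed in the same 6 pairs.

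The next comparison asked how each class responded to *ADAR* KO in the ADAR1-dependent lines. *BBC3* was higher in *ADAR* KO cells in all 3 lines.

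**Figure D2:**
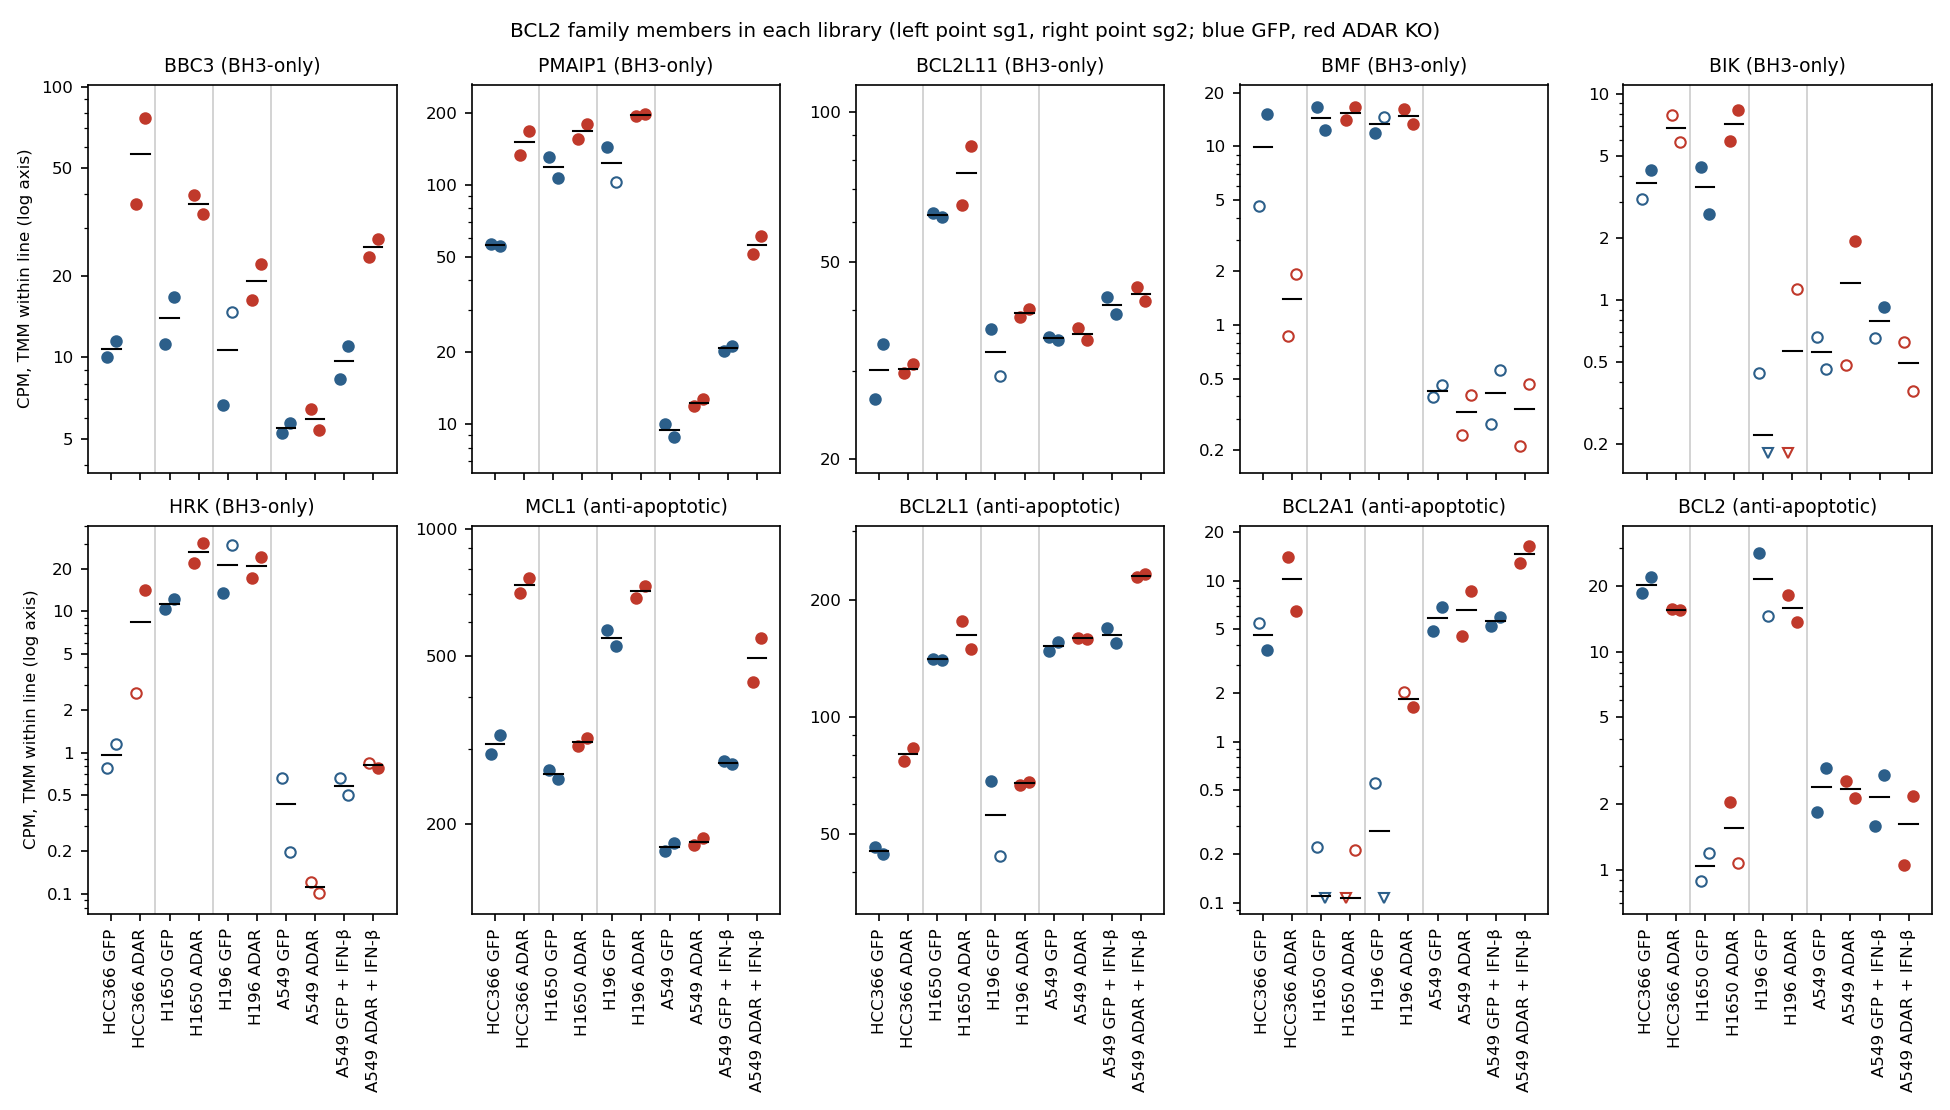
CPM (log axis, TMM within line) of each member in the 20 libraries. Blue points are *GFP*, red points *ADAR*, open points libraries with fewer than 10 reads on the gene, triangles libraries with none, and bars the mean of both sgRNAs; the *BBC3* points of *ADAR* KO HCC366 and NCI-H1650 lie between 33.7 and 76.3 CPM, above control points of at most 16.7 CPM.

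In HCC366, *BBC3* was 10.1 and 11.5 CPM in the *GFP* libraries and 36.7 and 76.3 CPM in the *ADAR* libraries. The ADAR sg2 library was the higher of the pair, and the groups did not overlap. The log2 fold change was 2.38 (SE 0.46, adjusted p = 0.0481), which made *BBC3* the 1 member called of the 6 that passed the filter on low counts (1.20% of 11135 genes tested were called higher). *PMAIP1* moved from 56.6 and 55.6 CPM to 134 and 169 CPM without overlap, a log2 fold change of 1.43 (SE 0.34, adjusted p = 0.0853).

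The anti-apoptotic *MCL1* was 293 and 325 CPM with the *GFP* sgRNAs and 704 and 762 CPM with the *ADAR* sgRNAs. Again the groups were apart, and the log2 fold change was 1.25 (SE 0.30, adjusted p = 0.0885). *BCL2L1* was 46.5 and 44.4 CPM in controls and 77.0 and 83.4 CPM after KO (0.82, SE 0.33, adjusted p = 0.244). Neither passed the threshold. *BCL2* was 18.6 and 22.1 against 15.7 and 15.5 CPM (−0.39, SE 0.39, adjusted p = 0.613), and *BCL2L11* was 26.3 and 34.1 against 29.7 and 31.0 CPM (−0.01, SE 0.36, adjusted p = 0.995). Of the 6 tested members, 4 lay higher and 1 lower in *ADAR* KO libraries without overlap (25.1% and 27.3% of all genes tested).

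The remaining 4 members were too low to be tested in HCC366. *BMF*, which senses loss of attachment in epithelial cells, had 6 and 53 reads (4.65 and 15.2 CPM) in the controls and 1 and 3 reads (0.875 and 1.94 CPM) after KO. *HRK* had 1 and 4 reads against 3 and 22 (0.775 and 1.15 against 2.62 and 14.2 CPM), and the ADAR sg2 library alone gave the high value. *BCL2A1* was 5.42 and 3.72 against 13.997 and 6.47 CPM, and *BIK* 3.10 and 4.30 against 7.87 and 5.82 CPM. At these depths no fold change is given.

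Which members of HCC366 passed the test depended on single libraries, in fits where the condition left with 1 library is assumed to vary like the other pair. The log2 fold change of *BBC3* was 2.26 without GFP sg1, 2.48 without GFP sg2, 2.77 without ADAR sg1 and 1.75 without ADAR sg2. Without ADAR sg2, *PMAIP1* was 1.28, *MCL1* 1.20 and *BCL2L1* 0.79, and without ADAR sg1 they were 1.57, 1.28 and 0.87. With 1 library left in a condition, the spread came from the pair of the other condition alone. Calls were lost in some of these fits and gained in others, so none is given. A model with GC and length offsets called *PMAIP1* (2.29, adjusted p = 0.00638) and *MCL1* (1.34, adjusted p = 0.00601). In that model 963 of 11135 genes were called in either direction.

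In NCI-H1650, all 6 BH3-only genes passed the filter and 3 of them rose, while neither of the 2 anti-apoptotic genes tested was called (6.18% of 14530 genes were called higher). *BBC3* went from 11.2 and 16.7 CPM to 39.7 and 33.7 CPM, with no overlap and a log2 fold change of 1.40 (SE 0.18, adjusted p = 5.47e-08). *HRK* went from 10.4 and 12.2 CPM to 22.1 and 30.3 CPM (1.21, SE 0.20, adjusted p = 1.3e-05). *PMAIP1*, already at 132 and 107 CPM in controls, was 156 and 180 CPM after KO (0.49, SE 0.11, adjusted p = 0.00215). Both *ADAR* libraries were above both *GFP* libraries for each of these genes. The *PMAIP1* call was lost without GFP sg2 (0.32, adjusted p = 0.279) or ADAR sg2 (0.37, adjusted p = 0.0547).

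*BIK*, which encodes a BH3-only protein of the endoplasmic reticulum, was 4.41 and 2.63 CPM in controls and 5.94 and 8.33 CPM after KO (0.99, SE 0.34, adjusted p = 0.0554; without ADAR sg1, 1.22, adjusted p = 0.0348). *BCL2L11* was 62.6 and 61.6 against 65.2 and 85.4 CPM (0.27, SE 0.13, adjusted p = 0.196; without ADAR sg1, 0.45, adjusted p = 0.0258), and *BMF* was 16.5 and 12.4 against 14.1 and 16.7 CPM (0.08, SE 0.21, adjusted p = 0.884). Only *BMF* overlapped between the groups. *MCL1* was 268 and 256 against 306 and 319 CPM (0.25, SE 0.10, adjusted p = 0.110), and *BCL2L1* was 141 and 140 against 176 and 149 CPM (0.21, SE 0.11, adjusted p = 0.239). In all, 7 of the 8 tested members lay higher without overlap, against 26.2% of all genes tested. *BCL2A1* (0 or 1 read per library) and *BCL2* (4 to 11 reads) were too low to test.

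In NCI-H196, 3 of 5 tested BH3-only genes and 1 of 3 tested anti-apoptotic genes rose, and *BCL2* fell (10.3% of 14094 genes were called higher and 7.50% lower). *BBC3* was 6.69 CPM (60 reads) and 14.7 CPM (1 read) in the controls and 16.2 and 22.1 CPM after KO (1.65, SE 0.24, adjusted p = 1.35e-09). *PMAIP1* was 144 and 103 against 195 and 197 CPM (0.46, SE 0.10, adjusted p = 0.00018), and *MCL1* was 576 and 528 against 686 and 733 CPM (0.32, SE 0.11, adjusted p = 0.0229). In all, 4 of the 8 tested members (these 3 and *BCL2L11*) lay higher without overlap and 4 overlapped, against 25.6% of all genes tested that lay higher, and GFP sg2 held 1, 7, 36 and 2 reads of *BBC3*, *PMAIP1*, *MCL1* and *BCL2L11*.

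*HRK* was 13.4 and 29.3 CPM (120 and 2 reads) against 17.3 and 24.2 CPM, so that the groups overlapped (0.77, SE 0.21, adjusted p = 0.00284). *BCL2* overlapped as well, at 28.5 and 14.7 CPM (256 reads and 1 read) against 18.3 and 13.7 CPM (−0.99, SE 0.20, adjusted p = 2.71e-05). The GFP sg2 values of these genes rest on 1 or 2 reads. *BCL2L11*, *BMF* and *BCL2L1* had log2 fold changes of 0.13, 0.20 and 0.00 (adjusted p = 0.631, 0.635 and 0.993), and *BIK* and *BCL2A1*, with at most 13 reads in any library, were not tested.

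The NCI-H196 calls changed with the library left out. Each such fit leaves a condition with 1 library, which is assumed to vary like the remaining pair. All 5 calls held only without the 62679-read library (GFP sg2), in a fit that also called more of all genes than the fit with every library. Some or all were lost in the other fits. Without GFP sg2, *BBC3* was 1.65, *HRK* 0.78, *PMAIP1* 0.44, *MCL1* 0.30 and *BCL2* −1.01. Without GFP sg1, *HRK* turned to −0.33, *BBC3* was 0.54, *PMAIP1* 0.95, *MCL1* 0.45 and *BCL2* −0.03. Without ADAR sg2, *BBC3* was 1.26, *HRK* 0.36, *PMAIP1* 0.51, *MCL1* 0.30 and *BCL2* −0.63. Without ADAR sg1, *PMAIP1* was 0.53 and *MCL1* 0.40. DESeq2 gave an adjusted p to *PMAIP1*, *MCL1* and *BCL2L1* (each 0.999) and none to the other 5 members.

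**Figure D3:**
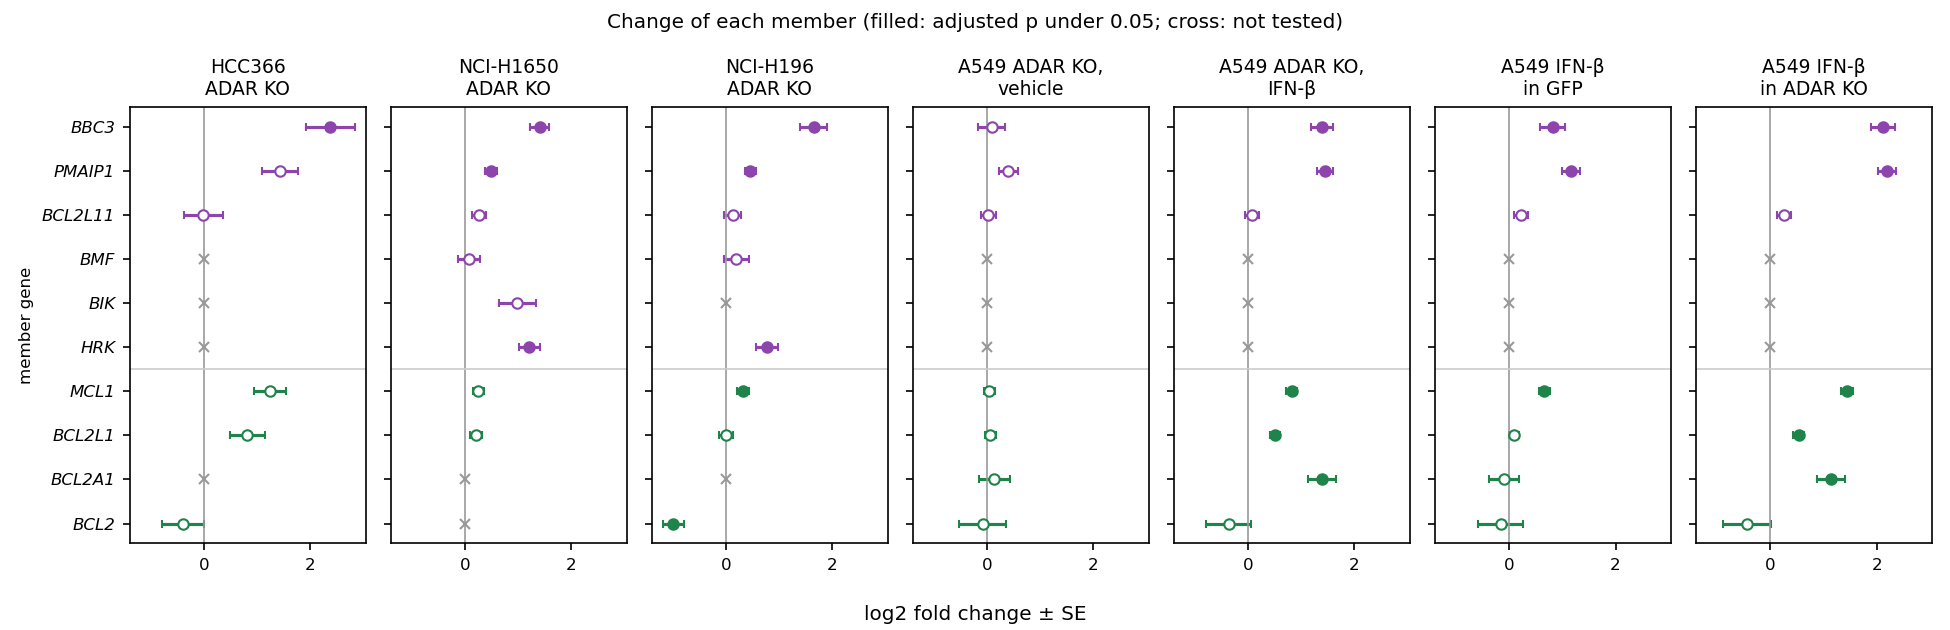
Log2 fold change ± SE of each member in 7 comparisons (edgeR, 2 libraries per condition), BH3-only genes in purple and anti-apoptotic genes in green. Filled points passed an adjusted p of 0.05, open points did not, and grey crosses at 0 mark genes too low to test; *BBC3* is filled in every panel but A549 *ADAR* KO with vehicle.

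With the 12 libraries of the 3 lines in a single fit, all 10 members were tested and 4 rose (4.28% of 16538 genes were called higher). These were *BBC3* (1.72, SE 0.22, adjusted p = 0.000128), *HRK* (1.18, SE 0.28, adjusted p = 0.0202), *PMAIP1* (0.78, SE 0.16, adjusted p = 0.0102) and the anti-apoptotic *MCL1* (0.60, SE 0.15, adjusted p = 0.0276). *BBC3* and *PMAIP1* passed without any single library. *HRK* was lost without NCI-H1650 GFP sg1 (1.16, adjusted p = 0.0517) or NCI-H1650 ADAR sg2 (1.09, adjusted p = 0.0573). *MCL1* was lost without HCC366 GFP sg1 (0.49, adjusted p = 0.115), HCC366 GFP sg2 (0.52, adjusted p = 0.0949), NCI-H196 GFP sg2 (0.58, adjusted p = 0.0522) or NCI-H196 ADAR sg2 (0.60, adjusted p = 0.0595).

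The other 6 members did not pass in that fit. *BIK* (0.91, adjusted p = 0.0695), *BCL2A1* (1.18, adjusted p = 0.0932) and *BCL2* (−0.51, adjusted p = 0.176) passed without HCC366 ADAR sg2 (0.98, 1.51 and −0.65; adjusted p = 0.0263, 0.0242 and 0.0396). *BCL2L1* (0.33, adjusted p = 0.179), *BCL2L11* (0.12, adjusted p = 0.652) and *BMF* (−0.31, adjusted p = 0.584) did not pass in it.

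Differences of the *ADAR* KO effect between lines were tested in a fit of all 20 libraries (2.21%, 2.41% and 0.00512% of 19523 genes were called for HCC366 against NCI-H1650, HCC366 against NCI-H196 and NCI-H1650 against NCI-H196). The KO effect on *BMF* was lower in HCC366 than in NCI-H1650 (log2 difference −3.07, SE 0.73, adjusted p = 0.0196) and than in NCI-H196 (−3.19, SE 0.77, adjusted p = 0.0199). The effect on *MCL1* was larger in HCC366 than in NCI-H1650 (0.94, SE 0.25, adjusted p = 0.0374). No member differed between NCI-H1650 and NCI-H196, where 1 of the 10 had an unadjusted p under 0.05 (*BCL2*, 1.53, SE 0.72). *BMF* in HCC366 rested on GFP sg2 (53 reads), without which the differences were −1.76 (adjusted p = 0.587) and −1.87 (adjusted p = 0.602). The first was also lost without NCI-H1650 GFP sg2 (−2.87, adjusted p = 0.0743) or ADAR sg2 (−2.96, adjusted p = 0.0625), and the second without NCI-H196 GFP sg1 (−3.19, adjusted p = 0.603) or ADAR sg2 (−3.27, adjusted p = 0.0857). The *MCL1* difference passed in only 4 of the 20 fits that left out a library, with values from 0.83 to 1.03.

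A549 was used to ask what *ADAR* KO does in a line that tolerates it, and what IFN-β adds. With vehicle, none of the 7 members that passed the filter was called after *ADAR* KO (0.123% of 15449 genes were called). *BBC3* was 5.28 and 5.71 CPM in controls and 6.46 and 5.39 CPM after KO, and the groups overlapped (0.09, SE 0.25, adjusted p = 0.998). *MCL1* was 172 and 180 against 178 and 185 CPM (0.04, SE 0.11, adjusted p = 0.998). *PMAIP1*, at 10.0 and 8.83 against 11.95 and 12.7 CPM, was the 1 member with an unadjusted p under 0.05 (0.40, SE 0.19, unadjusted p = 0.0380, adjusted p = 0.998). *BCL2L1* was 148 and 156 against 160 and 159 CPM (0.07, SE 0.099, adjusted p = 0.998). Of the 7 tested members, 2 (*PMAIP1* and *BCL2L1*) lay higher after KO without overlap and 5 overlapped. The share of all genes is not given for this comparison. It was 25.1% to 28.2% in the *ADAR* KO comparisons where it is given, so the count is not read as a change of the members. DESeq2 called no member either. A549 had received vehicle and the ADAR1-dependent lines no treatment, which the next difference cannot tell apart from the line. The KO effect on *BBC3* was larger over the ADAR1-dependent lines than in vehicle-treated A549 (1.69, SE 0.34, adjusted p = 0.00981, with 0.953% of genes called). *BBC3* was the only member of the 10 for which this difference passed. That call was lost without A549 GFP sg2 with vehicle (1.60, adjusted p = 0.133), either A549 ADAR library with vehicle (1.80 and 1.58, adjusted p = 0.0543 and 0.105), NCI-H196 GFP sg1 (1.42, adjusted p = 0.334) or NCI-H196 ADAR sg2 (1.53, adjusted p = 0.0610).

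With IFN-β, *ADAR* KO raised 5 of the 7 tested members, 2 BH3-only and 3 anti-apoptotic (10.8% of genes called higher). *PMAIP1* was 20.3 and 21.4 CPM in *GFP* cells and 51.6 and 61.1 CPM in *ADAR* cells (1.44, SE 0.15, adjusted p = 2.20e-08). *BBC3* was 8.35 and 11.0 against 23.5 and 27.4 CPM (1.39, SE 0.20, adjusted p = 8.29e-06). *BCL2A1*, an NF-κB target, was 5.25 and 5.96 against 12.8 and 16.5 CPM (1.39, SE 0.26, adjusted p = 0.000253). Both *ADAR* libraries were above both *GFP* libraries for each of these genes.

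*MCL1* was 281 and 277 against 434 and 552 CPM (0.82, SE 0.10, adjusted p = 7.90e-07), and *BCL2L1* was 169 and 155 against 229 and 233 CPM (0.51, SE 0.10, adjusted p = 0.000353). Neither overlapped, so that 5 of the 7 tested members lay higher without overlap, against 28.2% of all genes tested. *BCL2L11* (42.5 and 39.2 against 44.4 and 41.6 CPM) and *BCL2* (1.59 and 2.73 against 1.05 and 2.19 CPM) overlapped and were not called (0.07 and −0.36, adjusted p = 0.745 and 0.608). The 5 calls held without any single library. For no member did the KO effect over the 3 ADAR1-dependent lines differ from that in IFN-β-treated A549 (2.07% of genes called; 2 of 10 members with an unadjusted p under 0.05, *PMAIP1* at −0.60, SE 0.21, and *BIK* at 1.79, SE 0.73).

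IFN-β without *ADAR* deletion was compared with vehicle next. In *GFP* cells it raised *PMAIP1* (1.16, SE 0.17, adjusted p = 1.15e-05), *MCL1* (0.66, SE 0.11, adjusted p = 3.54e-05) and *BBC3* (0.82, SE 0.23, adjusted p = 0.0265), 3 of the 7 tested (4.39% of genes called higher). *BCL2L1* (0.09, SE 0.10, adjusted p = 0.741) and *BCL2A1* (−0.10, SE 0.28, adjusted p = 0.926) did not pass. The *BBC3* call was lost without GFP sg1 with vehicle (0.76, adjusted p = 0.163), GFP sg2 with vehicle (0.89, adjusted p = 0.164) or GFP sg2 with IFN-β (0.59, adjusted p = 0.264), and with DESeq2 (0.81, adjusted p = 0.0568).

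In *ADAR* cells IFN-β raised 5 of 7 (15.5% of genes called higher), namely *PMAIP1* (2.19, SE 0.16, adjusted p = 4.28e-12), *BBC3* (2.11, SE 0.22, adjusted p = 8.89e-09), *MCL1* (1.44, SE 0.11, adjusted p = 3.39e-12), *BCL2A1* (1.15, SE 0.26, adjusted p = 0.00148) and *BCL2L1* (0.54, SE 0.10, adjusted p = 0.000104). *BCL2A1* was lost without ADAR sg1 with vehicle (0.78, adjusted p = 0.0709) or ADAR sg2 with IFN-β (0.93, adjusted p = 0.0581). *BMF*, *BIK* and *HRK* stayed at or under 1.93 CPM in all 8 A549 libraries and were not tested.

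The difference between the IFN-β effects in *ADAR* and *GFP* cells, the interaction, was called for *BBC3* (1.30, SE 0.32, adjusted p = 0.0149), *PMAIP1* (1.04, SE 0.24, adjusted p = 0.00727) and *MCL1* (0.78, SE 0.15, adjusted p = 0.00104), 3 of 7 tested (4.07% of genes called higher). *BCL2A1* (1.25, SE 0.38, adjusted p = 0.0542) and *BCL2L1* (0.44, SE 0.14, adjusted p = 0.0583) fell just outside. With the transduced population as a block *BCL2A1* passed (1.26, adjusted p = 0.0245). *BCL2A1* also passed without GFP sg1 with vehicle (1.45, adjusted p = 0.0314), ADAR sg1 with IFN-β (1.41, adjusted p = 0.0263) or ADAR sg2 with vehicle (1.82, adjusted p = 0.00858), and *BCL2L1* without GFP sg1 with IFN-β (0.51, adjusted p = 0.0104). *PMAIP1* was lost without ADAR sg2 with IFN-β (0.91, adjusted p = 0.110), and *BBC3* without that library (1.18, adjusted p = 0.120), ADAR sg2 with vehicle (1.17, adjusted p = 0.0938) or GFP sg2 with vehicle (1.23, adjusted p = 0.116). *MCL1* passed without any single library.

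As classes, the BH3-only members had the larger median change among those tested in each comparison given next. The median log2 fold changes of the BH3-only and anti-apoptotic members were 1.43 (3 genes) and 0.82 (3 genes) for HCC366, 0.74 (6 genes) and 0.23 (2 genes) for NCI-H1650, and 0.46 (5 genes) and 0.00 (3 genes) for NCI-H196. In A549 they were 0.09 and 0.05 for *ADAR* KO with vehicle, 1.39 and 0.67 for *ADAR* KO with IFN-β, 0.82 and −0.00 for IFN-β in *GFP* cells, and 2.11 and 0.84 for IFN-β in *ADAR* cells (3 and 4 genes). The median over all genes tested lay between −0.01 and 0.01 in these comparisons. These medians depend on which low genes enter: without the filter, when *BMF*, *BIK* and *HRK* count, the BH3-only median minus the anti-apoptotic one went from 0.72 to −0.38 for *ADAR* KO with IFN-β in A549 and from 1.27 to 0.35 for IFN-β in *ADAR* cells. In HCC366, where *BCL2A1* then counts as well, it went from 0.61 to 0.10. No test was made of the classes.

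Summed levels of each class were then set side by side, as a description.

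**Figure D4:**
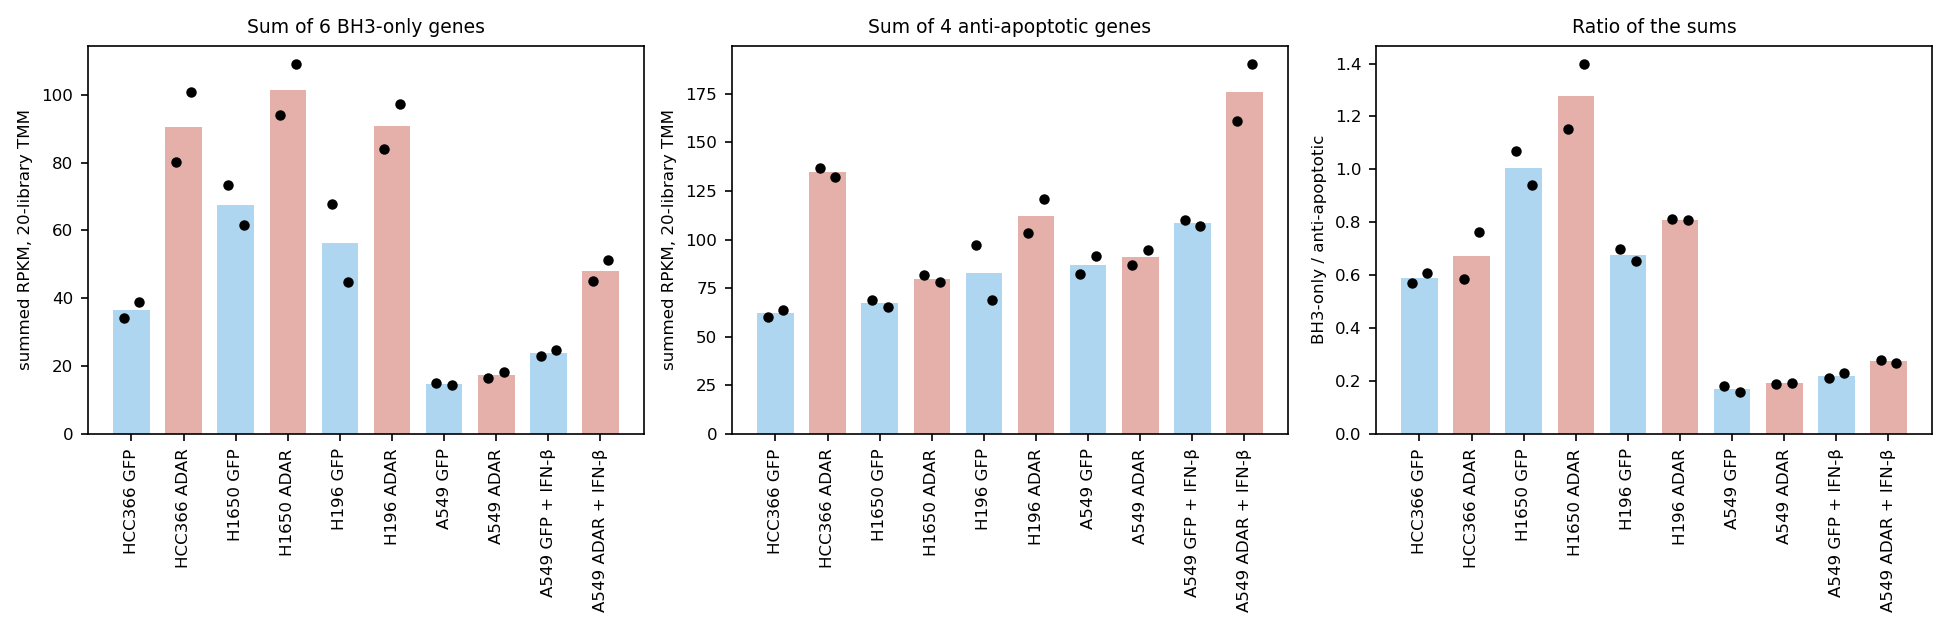
Summed RPKM of the 6 BH3-only genes, of the 4 anti-apoptotic genes and the ratio of the sums, in each library (points) with the mean of both sgRNAs (bars from 0; blue *GFP*, red *ADAR*). The ratio in A549 stays between 0.158 and 0.280, and in the other lines between 0.571 and 1.40.

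In HCC366 the BH3-only sum was 34.3 and 38.8 RPKM in controls and 80.1 and 101 RPKM after *ADAR* KO, and the anti-apoptotic sum was 60.0 and 63.9 against 137 and 132 RPKM. The means went from 36.6 to 90.4 and from 61.9 to 135 RPKM, and the ratio, 0.571 and 0.608 against 0.586 and 0.761, overlapped between the groups. In NCI-H1650 the ratio was 1.07 and 0.942 against 1.15 and 1.40. In NCI-H196 it was 0.699 and 0.652 against 0.813 and 0.807. In neither of these lines did the ratios overlap, but the NCI-H196 value of 0.652 came from GFP sg2, the library of 62679 reads. *PMAIP1*, the largest part of the BH3-only sum, had 7 reads there. No test was made of the ratios.

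In A549 the ratio was 0.181 and 0.158 in *GFP* cells with vehicle and 0.189 and 0.193 in *ADAR* cells with vehicle, again without overlap. With IFN-β, where the groups did not overlap either, it was 0.209 and 0.230 in *GFP* cells and 0.280 and 0.269 in *ADAR* cells. The last pair was the highest of the line and remained below every library of the ADAR1-dependent lines. The A549 anti-apoptotic sum with *ADAR* KO and IFN-β (161 and 190 RPKM) was the highest of any condition. *PMAIP1* made up 34.8% to 84.5% of the BH3-only sum in the 20 libraries.

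Other genes of the apoptotic pathway were read from lists of their own. Of 13 other BCL2 family genes, which include the pore formers *BAX* and *BAK1*, none of the 10 or 11 tested was called after *ADAR* KO in HCC366, NCI-H1650 or vehicle-treated A549. Of all genes tested, 1.20% in HCC366 and 6.18% in NCI-H1650 were called higher, and 0.123% in vehicle-treated A549 in either direction. In NCI-H196, 1 of 10 tested rose (*BID*, the BH3-only protein that caspase-8 cleaves, 0.88, SE 0.26, adjusted p = 0.00878) and 1 fell (*BNIP3L*, −0.29, SE 0.10, adjusted p = 0.0325). These counts were near the shares of all genes called there, 10.3% higher and 7.50% lower. In A549, *BCL2L13* rose with IFN-β in *GFP* cells (1.14, SE 0.11) and in *ADAR* cells (1.41, SE 0.11) and with *ADAR* KO under IFN-β (0.30, SE 0.11, adjusted p = 0.0474), and *BAX* fell in *ADAR* cells (−0.42, SE 0.12, adjusted p = 0.0118).

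Of 15 genes of the caspase machinery, none was called in HCC366, NCI-H1650 had 1 that rose (6.18% of all genes tested rose) and 1 that fell, and NCI-H196 had 1 that rose and 4 that fell (10.3% and 7.50%). The gene that rose was *BIRC3* in both (0.90, SE 0.14, adjusted p = 5.59e-06 and 1.08, SE 0.16, adjusted p = 4.25e-10), an inhibitor of apoptosis known as an NF-κB target. In A549 with IFN-β, *ADAR* KO raised *BIRC3* (1.70, SE 0.13, adjusted p = 2.85e-11) and *BIRC2* (1.00, SE 0.12, adjusted p = 5.88e-07) and lowered *AIFM1* (−0.35, SE 0.10, adjusted p = 0.0208). The initiator caspase gene *CASP8* rose with IFN-β in *GFP* cells (0.85, SE 0.12, adjusted p = 3.43e-06).

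Transcription factors and stress genes that are known regulators of BCL2 family genes formed another list. Of 15, HCC366 had 4 that rose, NCI-H1650 had 9, NCI-H196 had 8 and 9 of 14 tested in A549 with *ADAR* KO and IFN-β, none was called in vehicle-treated A549, and none fell in these comparisons. Of all genes tested, 1.20%, 6.18%, 10.3% and 10.8% were called higher in the first 4 of these comparisons. The list holds *ATF3*, *DDIT3* and *TRIB3*, which the authors had reported as enriched after *ADAR* KO in these same libraries. Its counts are therefore not independent of that report. *ATF3* had the largest change of the list in NCI-H1650 (1.90, SE 0.12), NCI-H196 (1.57, SE 0.12), HCC366 (4.15, SE 0.40, adjusted p = 0.0221) and A549 with IFN-β (4.57, SE 0.20, adjusted p = 1.58e-16). *DDIT3*, which encodes CHOP, had log2 fold changes of 3.60 (SE 0.57, adjusted p = 0.0307), 1.01 (SE 0.19, adjusted p = 0.000133), 0.87 (SE 0.17, adjusted p = 6.39e-06) and 3.13 (SE 0.24, adjusted p = 4.19e-11) in those lines, taken in the order HCC366, NCI-H1650, NCI-H196 and A549.

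Among 13 p53 targets without *BBC3* and *PMAIP1*, 1 of 12 tested rose in HCC366 (1.20% of all genes), 3 of 13 in NCI-H1650 (6.18%), 5 of 13 in NCI-H196 (10.3%) and 5 of 13 in A549 with *ADAR* KO and IFN-β (10.8%). *TNFRSF10B*, the death receptor DR5 and also a CHOP target, rose in all 4 (1.98, SE 0.36, adjusted p = 0.0420; 0.57, SE 0.11, adjusted p = 0.000378; 0.67, SE 0.11, adjusted p = 1.74e-08; 0.95, SE 0.11, adjusted p = 8.67e-08).

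*BBC3* and *HRK* were the members whose log2 CPM, centred on each line, varied most over the 20 libraries (SD 0.88 and 0.83, the 81.9 and 77.2 percentiles of all genes). The 3 genes with the smallest root mean square difference to *BBC3* over the 20 libraries were *GADD45B* (0.284), *SERTAD1* (0.296) and *IRAK2* (0.315), against a median of 1.02 over all genes. For *HRK* they were *ADAMTSL4-AS1* (0.430), the identifier without a symbol ENSG00000225676 (0.441) and *CEBPB* (0.441), against a median of 0.987.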

How the data were processed

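RNA was depleted of ribosomal RNA, made into directional libraries and sequenced as paired ends. STAR (alignment, hg19) and HTSeq (counting by gene) were used by the authors, and the deposited files hold these raw counts without normalization. Versions, annotation release and strand setting of the counting are not given in the sources used here. The 5 summary lines of each file were left out. Symbols matched 55727 of 58233 identifiers (97.4% of counts). Gene lengths came from GENCODE v44 mapped to GRCh37, and promoters from RefSeq.

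Counts were fitted in R 4.3.3 with edgeR 4.0.16 (quasi-likelihood F-test, TMM, filterByExpr by condition) and limma 3.58.1, with Benjamini-Hochberg adjustment at 0.05. Each ADAR1-dependent line and A549 (8 libraries) had its own fit, and a 12-library fit had line as covariate. A 20-library fit by condition served differences between lines and control levels. SE is the absolute log2 fold change over the square root of F. CPM were TMM-scaled within a line. Tests were run on simulated data first. DESeq2 1.42.0, RLE scaling, no filter, blocks, offsets, all 20 libraries and leaving out each library were alternatives.

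Named genes were *ADAR*, the members, up to 3 called genes with the largest change per companion list and comparison, and the 3 nearest genes to members above the 75 percentile of line-centred SD. Members and lists were chosen with earlier results of these data known. The A549 fit had no block, so that vehicle and IFN-β libraries of 1 sgRNA entered it as independent. Only the alternative with the population as a block took them as the same transduced A549 population. Deviations of these libraries correlated at −0.0592 (*GFP*) and −0.00477 (*ADAR*). Depth ran from 62679 to 19520189 reads on genes. Reads without molecular identifiers are not independent molecules.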

Additional observations from a re-analysis of the deposited data

Results flagged for a closer look

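Differences between effects that passed their own test were found for 4 members. In A549 the IFN-β effect was larger in *ADAR* than in *GFP* cells for *BBC3* (log2 difference 1.30, SE 0.32, adjusted p = 0.0149), *PMAIP1* (1.04, SE 0.24, adjusted p = 0.00727) and *MCL1* (0.78, SE 0.15, adjusted p = 0.00104), as an interaction term in edgeR. Across lines, the *ADAR* KO effect on *BMF* was lower in HCC366 than in NCI-H1650 (−3.07, SE 0.73, adjusted p = 0.0196) and NCI-H196 (−3.19, SE 0.77, adjusted p = 0.0199), with 53 of the 59 *BMF* reads of the HCC366 controls in GFP sg2. The effect on *MCL1* was larger in HCC366 than in NCI-H1650 (0.94, SE 0.25, adjusted p = 0.0374), and that on *BBC3* was larger over the ADAR1-dependent lines than in vehicle-treated A549 (1.69, SE 0.34, adjusted p = 0.00981). The depth of the libraries and, for HCC366, the share of non-unique alignments differ between lines, and their part in these differences was not tested. A549 also received vehicle while the other lines were untreated, and the day of RNA isolation after transduction is not stated for A549. For *BBC3* these cannot be told apart from the line.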

How the results depend on the processing

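Single members kept their side of the threshold in 983 of 1111 checks, 23 of them uncalled values that changed sign, became called in 40 and lost the call in 87, and 1 called value turned sign (*HRK* in NCI-H196, −0.33 without GFP sg1, up to 0.85 without ADAR sg1). Of members called in HCC366 (1), DESeq2 gave 3, RLE scaling 0, no filter 5, GC and length offsets 3 and all 20 libraries 6. In NCI-H196 (5), DESeq2 gave 0, with no adjusted p for 5 members, and all 20 libraries 1. The interaction (3) had 0 with all 20 libraries, and differences between lines (4) had 7 with RLE scaling. The cause was not tested. When single libraries were left out, the number of all genes called also moved. This held for each ADAR1-dependent line, the 3 lines together and the interaction, and most widely for HCC366 and NCI-H196. The ranges of members called that follow are therefore not read as changes of the members. Leaving out single libraries gave 0 to 6 members for HCC366, 2 to 5 for NCI-H1650, 0 to 5 for NCI-H196, 1 to 4 for the interaction, 3 to 7 over the 3 lines and 1 to 14 for the differences.

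The BH3-only minus anti-apoptotic median changed with the genes that entered, and also in fits with the same genes (GC and length offsets in HCC366, DESeq2 in NCI-H196). Without the filter it was 0.10 in HCC366, and in A549 −0.38 for *ADAR* KO with IFN-β, 0.58 for IFN-β in *GFP* cells, 0.35 in *ADAR* cells and −0.016 for the interaction. With all 20 libraries these were 0.094, −0.38, 0.61, 0.35 and −0.0051, and with GC and length offsets it was 1.19 in HCC366. DESeq2 gave 0.18 in NCI-H196 (0.46 with edgeR). Leaving out single libraries gave 0.013 to 0.85 in HCC366, 0.28 to 0.72 in NCI-H1650 (0.50 with all libraries), 0.0027 to 0.41 in NCI-H196, 0.0085 to 0.28 for *ADAR* KO with vehicle, −0.031 to 0.72 with IFN-β, 0.35 to 0.90 for IFN-β in *GFP* cells, 0.29 to 0.98 in *ADAR* cells and −0.15 to 0.46 for the interaction.

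Same-numbered *GFP* and *ADAR* libraries share only an sgRNA number (their deviations correlated at −0.253, −0.0163 and −0.0209 in the lines HCC366, NCI-H1650 and NCI-H196). With that number as a replicate block, 0 members were called in NCI-H196, and all genes called were 300 for HCC366 (139 without the block), 115 for NCI-H196 (2513) and 362 over the 3 lines (876), where *MCL1* was 0.61 (adjusted p = 0.0757). A crossed block, chosen after seeing the data, gave 3 members and 960 genes in HCC366. Over all genes, DESeq2 called 308, 389, 11 and 4 in HCC366, NCI-H1650, NCI-H196 and vehicle-treated A549 (139, 1250, 2513 and 19 with edgeR). Without the filter 903 were called in HCC366, 1552 in NCI-H196, 30 in vehicle-treated A549 and 1829 over the 3 lines, and the offsets gave 963 in HCC366. With all 20 libraries the counts were 3701 for HCC366, 159 for NCI-H1650, 98 for NCI-H196 and 5 for vehicle-treated A549, and 1087, 531, 2067 and 164 for the other A549 comparisons (2622, 880, 3788 and 780). NCI-H196 GFP sg2 held at most 3 reads of each member but *MCL1* (36) and *PMAIP1* (7), which limits what that control can show.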

Other observations

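Transcripts that overlap members on the other strand were counted as genes of their own. *ABALON*, which shares 41.3% of the exonic bases of *BCL2L1*, had 0 to 115 reads per library, 3.11% of the *BCL2L1* total over the 20 libraries. *MIR4435-2HG*, which shares 10.8% of those of *BCL2L11*, had 6 to 1712 reads and a total of 9354, above the 5954 of *BCL2L11*. *ADAMTSL4-AS1*, which shares 5.27% of the exonic bases of *MCL1* on the same strand and was nearest to *HRK* in pattern, had 1 to 71 reads. The strand setting of the counting is not given in the sources used here, so reads in these overlaps cannot be assigned with certainty.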
